A study of Mus musculus with 6 samples.

Results

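The genes described here are 8 light chain genes of the mouse: the kappa constant gene Igkc, the kappa joining genes Igkj1, Igkj2, Igkj4 and Igkj5, and the lambda constant genes Iglc1, Iglc2 and Iglc3. They were chosen by name, not by a threshold on their values, and all 8 were found among the 46963 gene names of the count table. RNA was sequenced from CD43- splenic B-cells, that is, spleen cells from which cells bearing the surface protein CD43 had been removed. The study addressed how 2 regulatory regions of the heavy chain locus, the Eμ enhancer and the 3′ regulatory region (3′RR), act in mature B-cells. The light chain loci lie on other chromosomes and carry neither deletion.

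There were 6 libraries, 1 for each genotype in each culture state. The genotypes were wt mice of strain 129, Eμ-deficient mice (which lack Eμ with its flanking matrix attachment regions) and 3′RR-deficient mice, both mutants in a 129 background, all 8 to 12 weeks old and of either sex. Resting B-cells received no stimulus, and LPS-stimulated B-cells were kept for 2 days in medium with lipopolysaccharide (LPS), a part of the outer membrane of bacteria that activates B-cells, at 5 μg per ml. The sample labels describe the resting cells as kept in medium for 2 days, whereas the methods of the study describe them as taken before stimulation. According to the labels each library pooled cells of 2 mice. The numbers of mice and pools in the methods of the study and in a figure legend differ from the labels and from each other. The deleted regions themselves, which are not genes, were not analysed here. Since no group had a replicate, genotypes could not be tested against each other within a state.

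Each B-cell normally carries light chains of a single type, kappa or lambda, on its surface. A kappa chain is made when a kappa variable gene (Igkv) is joined in DNA to a joining segment (Igkj), and the transcript is then spliced to Igkc. In the lambda locus the joining segments and constant genes lie in pairs, with Iglv1 joined mainly to the segments before Iglc1 or Iglc3 and Iglv2 mainly to the segment before Iglc2, and lambda cells are a small minority in most mouse strains.

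Igkc lies on the plus strand of chromosome 6 of mm10 (GRCm38), in 1 exon of 532 nt at chr6:70726435-70726966, downstream of the joining segments. The 4 joining genes and Igkj3, which is not among the 8, are shown over their coding transcripts because the results differ between segments and constant gene, and because their length, 38 to 43 bases of annotated exon, limits what can be counted on them. For Igkj2 and Igkj5 a non-coding transcript extends the exon past the bases shown. Capitals mark the 12 bases at the position where light chain joining segments code for the conserved turn Phe-Gly-any-Gly, which was found by translation in Igkj1, Igkj2, Igkj4 and Igkj5 and was not found in Igkj3. The sequences are from the GENCODE M21 transcripts of GRCm38, plus strand.
Igkj1, chr6:70722562-70722599: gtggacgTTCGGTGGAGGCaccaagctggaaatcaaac
Igkj2, chr6:70722916-70722954: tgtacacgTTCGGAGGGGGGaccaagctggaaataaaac
Igkj3, chr6:70723223-70723260: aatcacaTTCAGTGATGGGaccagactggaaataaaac
Igkj4, chr6:70723548-70723585: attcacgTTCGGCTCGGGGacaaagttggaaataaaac
Igkj5, chr6:70723886-70723923: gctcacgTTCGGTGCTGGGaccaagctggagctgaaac

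On chromosome 16 the lambda constant genes lie on the minus strand: Iglc1 at chr16:19061618-19062071, Iglc3 at chr16:19065230-19065681 and Iglc2 at chr16:19198396-19200351. The start of each constant exon is shown because Iglc1 behaved unlike Iglc2 and Iglc3. The 60 bases begin at the same aligned base, and capitals mark the bases that differ from Iglc1, 13 in Iglc2 and 13 in Iglc3.
Iglc1, chr16:19062010-19062069: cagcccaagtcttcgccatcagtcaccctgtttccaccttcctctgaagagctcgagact
Iglc2, chr16:19198791-19198850: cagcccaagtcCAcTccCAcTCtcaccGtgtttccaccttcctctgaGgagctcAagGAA
Iglc3, chr16:19065620-19065679: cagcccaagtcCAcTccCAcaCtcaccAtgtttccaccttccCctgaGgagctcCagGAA
Over the aligned bases of the constant exons, Iglc2 and Iglc3 were 95.4% identical, with a longest shared run of 79 bases. Iglc1 was 72.7% identical to Iglc2 and 70.3% identical to Iglc3, with longest shared runs of 19 and 17 bases. None of the 3 pairs shared a stretch of 150 bases, the length of a read, but part of a read can still fall in a shared stretch, so that the division of counts between Iglc2 and Iglc3 is less certain than that between either and Iglc1.

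Gene counts summed to 16094475 (wt), 13406257 (Eμ-deficient) and 20780706 (3′RR-deficient) in the resting libraries and to 21998587, 10936243 and 9111974, in the same order of genotypes, in the LPS-stimulated libraries. This order, wt, Eμ-deficient, 3′RR-deficient, is kept below wherever 3 values are given for a state. Levels are given as CPM, that is, deposited counts rescaled to the same library total after TMM scaling. Spike-in RNAs added in fixed amounts gave a measure of technical error. For 35 of them, each with 100 or more counts in all libraries, the log2 ratios between 3′RR-deficient and wt had an SD of 1.27 after LPS, against 0.16 in resting B-cells. Between Eμ-deficient and wt it was 0.44 and 0.48. Between LPS-stimulated and resting libraries it was 0.78 in wt, 0.13 in Eμ-deficient and 0.63 in 3′RR-deficient cells. The 95% intervals below are exact binomial (Clopper-Pearson) intervals. They compare libraries and not genotypes. They cover no more than counting error, because amplified reads are not independent molecules.

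Igkc, which codes for the constant domain of every kappa chain, had the largest count of the 8 genes in every library. The resting libraries held 14715 (809 CPM), 31701 (2399 CPM) and 20218 (983 CPM) counts of Igkc. The LPS-stimulated libraries held 18926 (905 CPM), 31839 (2982 CPM) and 23089 (2594 CPM). The libraries thus fell into a lower set, both wt libraries and the resting 3′RR-deficient library, and a higher set, both Eμ-deficient libraries and the LPS-stimulated 3′RR-deficient library. In bulk RNA, fewer cells of a type and less RNA per cell cannot be told apart.

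**Figure D1:**
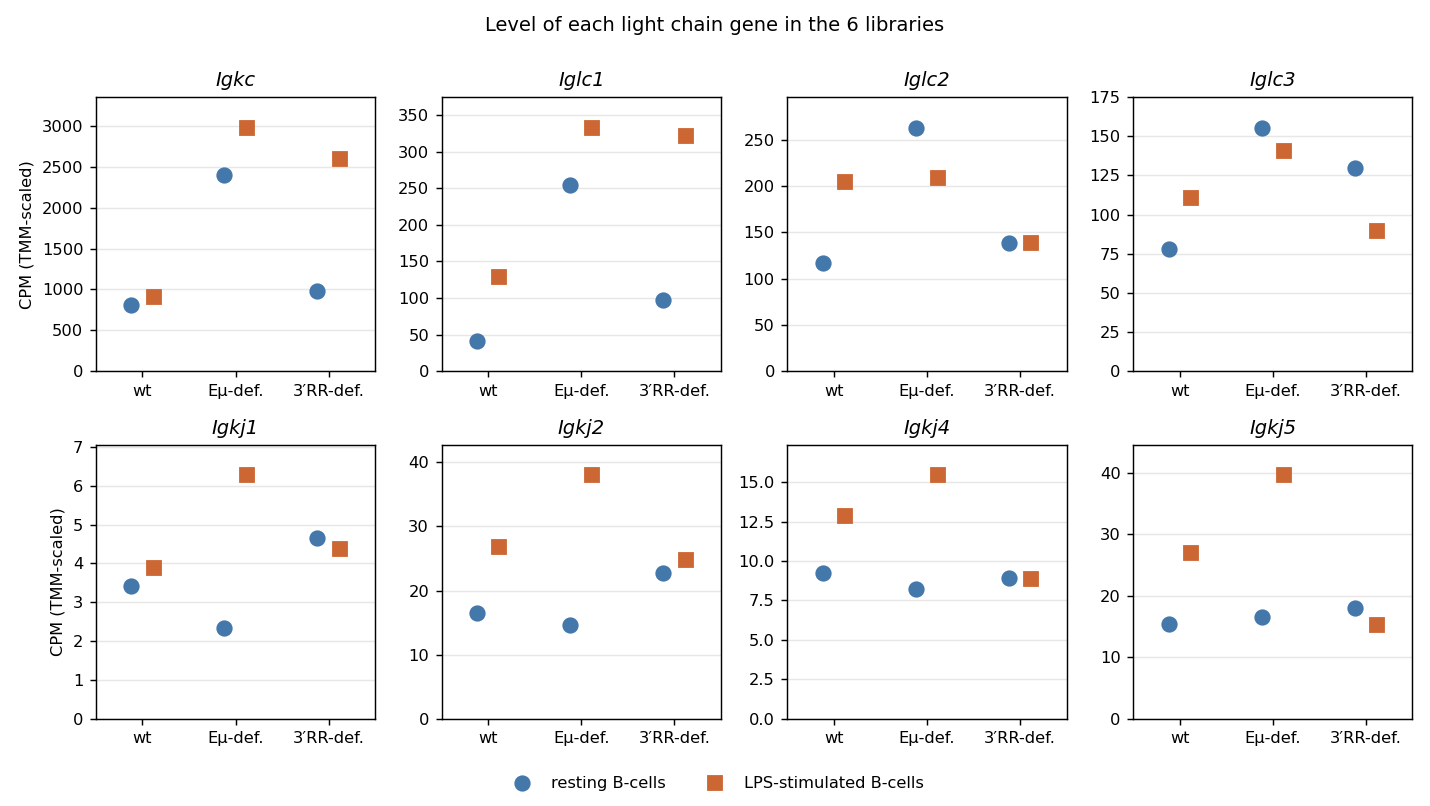
TMM-scaled CPM (vertical axes, from 0) of each of the 8 light chain genes by genotype, with circles for resting and squares for LPS-stimulated B-cells, 1 library per point and no error bars since no group was replicated. Igkc and Iglc1 were lowest in the resting wt library (809 and 41.8 CPM), whereas the joining genes kept within a factor of 2.68 across the 6 libraries.

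The joining segments gave few counts and did not follow Igkc. Igkj1 had 31 to 96 counts per library, Igkj2 193 to 560, Igkj4 79 to 269 and Igkj5 136 to 565. Summed over these 4 genes, the level in resting B-cells was 44.6, 41.7 and 54.3 CPM, and after LPS it was 70.5, 99.4 and 53.2 CPM. The resting Eμ-deficient library had the most Igkc of the resting libraries. With TMM scaling it did not have more joining segment counts than wt beyond counting error (log2 ratio -0.10, 95% interval -0.25 to 0.06). Scaling to the spike-ins lowered this ratio by 0.81, further below 0. Per count of Igkc, resting B-cells had 0.0550 (95% interval 0.0512 to 0.0591), 0.0174 (0.0159 to 0.0189) and 0.0552 (0.0520 to 0.0587) joining segment counts. After LPS these values were 0.0779 (0.0739 to 0.0822), 0.0333 (0.0313 to 0.0354) and 0.0205 (0.0187 to 0.0225). A fragment that also covers a variable or constant gene overlaps more than 1 gene name, and no option that assigns such fragments was stated for the counting. The counts on segments of this length therefore need not follow the number of joined kappa transcripts, and the effect was not tested.

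Among the 4 segments Igkj1 had the fewest counts in every library, Igkj4 came next, and Igkj2 and Igkj5 changed places between libraries. Igkj2 took between 35.0% and 46.4% of their summed counts and Igkj5 between 28.7% and 39.9%. Igkj4 took between 15.6% and 20.7%, and Igkj1 between 5.49% and 8.59%. The highest share of Igkj2 and the lowest of Igkj5 were both found in 3′RR-deficient cells after LPS, where Igkj2 had 46.4% (95% interval 41.9% to 51.0%) and Igkj5 28.7% (24.7% to 33.0%). In the LPS-stimulated wt library the shares were 38.0% (35.5% to 40.5%) and 38.3% (35.8% to 40.8%).

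The lambda constant genes did not move together. Iglc1, which codes for the constant domain of the λ1 chain, had 760 (41.8 CPM), 3363 (254 CPM) and 1993 (96.9 CPM) counts in resting B-cells. After LPS it had 2677 (128 CPM), 3553 (333 CPM) and 2861 (321 CPM). Within each genotype the LPS-stimulated library was above the resting one, and within each state both mutants were above wt.

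Iglc2, the constant gene of the λ2 chain, had 117, 263 and 138 CPM in resting B-cells, and 205, 209 and 139 CPM after LPS. Iglc3, the constant gene of the λ3 chain, had 77.8, 156 and 130 CPM in resting B-cells, and 111, 140 and 89.6 CPM after LPS. Across the 6 libraries, as scaled with TMM, Iglc2 varied 2.25-fold and Iglc3 2.00-fold, against 3.68-fold for Igkc and 7.96-fold for Iglc1. Both Iglc2 and Iglc3 were highest in the resting Eμ-deficient and lowest in the resting wt library. The log2 ratios of these libraries were 1.17 and 1.00 with TMM, and 0.36 and 0.19 with scaling to the spike-ins. With TMM scaling, only in wt was the LPS-stimulated library the higher one beyond counting error, for Iglc2 as for Iglc3. With scaling to the spike-ins the log2 ratio in wt was 0.015 for Iglc2 and -0.28 for Iglc3, so that this difference depended on the scaling.

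Levels of different genes can be compared per length, here as CPM per kb of annotated exon. In resting wt B-cells the level of Igkc was 1521 CPM per kb, that of Iglc2 191, that of Iglc3 172 and that of Iglc1 92.1. In 3′RR-deficient cells after LPS Igkc had 4875 CPM per kb, Iglc1 708, Iglc2 226 and Iglc3 198. Of the 3 lambda genes Iglc1 was lowest per kb in the resting wt and 3′RR-deficient libraries, between the others in wt after LPS (282), and highest in both Eμ-deficient libraries (560 in resting B-cells and 733 after LPS) and in 3′RR-deficient cells after LPS. The annotated exons of Iglc2 include a stretch of 154 nt that holds the joining segment Iglj2, for which 0 counts were recorded in every library. If all Iglc2 counts fell in its constant exon of 458 nt, Iglc2 would lie above Iglc1 per kb in the resting Eμ-deficient library.

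As a share of the summed lambda constant counts, Iglc1 took 17.7% (95% interval 16.5% to 18.8%), 37.8% (36.8% to 38.8%) and 26.5% (25.5% to 27.5%) in resting B-cells. After LPS it took 28.8% (27.9% to 29.8%), 48.8% (47.6% to 49.9%) and 58.5% (57.1% to 59.9%). In every genotype the share was larger after LPS, and in each state it was larger in both mutants than in wt. Over 3 libraries per state the log2 ratio of Iglc1 to Iglc2 and Iglc3 was -0.29 ± 0.92 (SD, n = 3) after LPS and -1.47 ± 0.75 (SD, n = 3) in resting B-cells. A two-sided exact permutation test gave p = 0.20 (n = 3 per state, smallest possible 0.10), adjusted to 0.867 by Benjamini-Hochberg over 13 ratios, several of which were added after their values were seen. The 3 libraries of a state are of 3 genotypes, so that the SD, here and below, takes in differences between genotypes. The permutation test, here and below, does not pair the libraries by genotype. Within genotypes the log2 ratio was higher after LPS by 0.92, 0.65 and 1.96. The ratio of Iglc2 to Iglc3 counts was between 1.06 in the resting 3′RR-deficient library and 1.85 in the LPS-stimulated wt library.

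**Figure D2:**
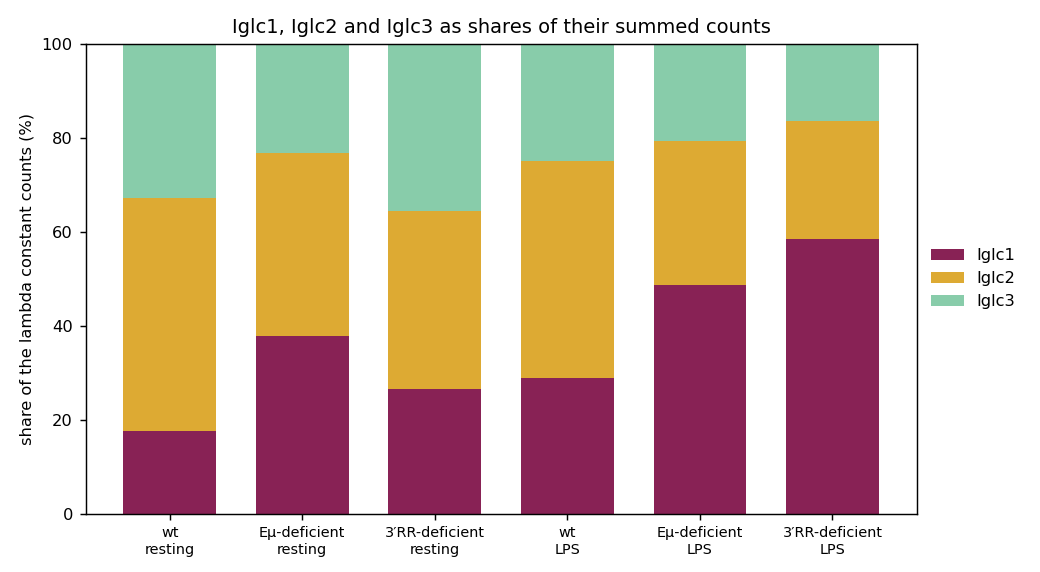
Share in percent (vertical axis, from 0) of Iglc1, Iglc2 and Iglc3 in the summed counts of the 3 lambda constant genes, 1 bar for each of the 6 libraries. Iglc1 took 17.7% in the resting wt library and 58.5% in 3′RR-deficient cells after LPS.

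The variable genes that are joined to these constant genes gave another picture of lambda. Iglv1 had 28.3, 304 and 78.4 CPM in resting B-cells, and 66.7, 343 and 181 CPM after LPS. Iglv2 had 14.9, 163 and 22.2 CPM in resting B-cells, and 16.9, 111 and 44.3 CPM after LPS. Iglv3 had 21.7, 48.7 and 31.5 CPM in resting B-cells, and 32.8, 49.5 and 89.3 CPM after LPS. Iglv1 and Iglv2 were highest in Eμ-deficient cells in both states, whereas Iglv3 was highest in 3′RR-deficient cells after LPS. Per count of Iglc2, resting B-cells had 0.127 (95% interval 0.111 to 0.144), 0.619 (0.586 to 0.653) and 0.160 (0.145 to 0.177) counts of Iglv2. After LPS the values were 0.0823 (0.0736 to 0.0918), 0.532 (0.496 to 0.571) and 0.319 (0.284 to 0.358). For Iglv1 per count of Iglc1 the range was narrower, from 0.521 in the LPS-stimulated wt library to 1.19 in the resting Eμ-deficient library. Iglv3, which can also be joined to the segment before Iglc2, is not part of these ratios.

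The kappa to lambda ratio was taken within a library, as Igkc counts over the summed counts of Iglc1, Iglc2 and Iglc3, and does not depend on the scaling of libraries. In resting B-cells it was 3.42 (95% interval 3.31 to 3.54), 3.56 (3.48 to 3.65) and 2.69 (2.62 to 2.76). After LPS it was 2.04 (1.99 to 2.09), 4.37 (4.26 to 4.48) and 4.72 (4.58 to 4.87). The ratio was thus lower after LPS in wt and higher after LPS in both mutants. Divided by exon length, a scale chosen after the data were seen, the ratio was 3.34, 3.38 and 2.54 in resting B-cells, and 1.97, 4.05 and 4.30 after LPS. Lambda counts made up between 17.5% (LPS-stimulated 3′RR-deficient library) and 32.9% (LPS-stimulated wt library) of the light chain constant counts.

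Compared within a state, the log2 ratio of the Eμ-deficient to the wt value was 0.06 (95% interval -0.0017 to 0.12) in resting B-cells and 1.10 (1.05 to 1.15) after LPS. For 3′RR-deficient relative to wt it was -0.35 (-0.41 to -0.28) and 1.21 (1.15 to 1.27). Both comparisons after LPS share the wt library, and the spike-in RNAs of these pairs of libraries varied among themselves with an SD of 0.44 and 1.27. Over the 3 libraries per state the log2 kappa to lambda ratio was 1.80 ± 0.67 (SD, n = 3) after LPS and 1.68 ± 0.22 (SD, n = 3) in resting B-cells. A two-sided exact permutation test gave p = 0.80, where 0.10 is the smallest possible, adjusted to 1 over the 13 ratios. These means pool opposite directions, since within genotypes the log2 ratio changed after LPS by -0.75, 0.29 and 0.81.

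The direction depended on which lambda genes were counted. With Iglc1 alone as lambda, the ratio in resting B-cells was 19.4 (95% interval 18.0 to 20.9), 9.43 (9.10 to 9.77) and 10.1 (9.69 to 10.6), and after LPS 7.07 (6.79 to 7.36), 8.96 (8.66 to 9.28) and 8.07 (7.76 to 8.39). All 3 genotypes were then lower after LPS (exact permutation p = 0.10, the smallest possible, adjusted to 0.867 over 13 ratios). With Iglc2 and Iglc3 as lambda the ratio was 4.16, 5.73 and 3.66 in resting B-cells, and 2.86, 8.53 and 11.4 after LPS. With variable genes in place of constant genes, all Igkv over Iglv1 to Iglv3, it was 11.6 (10.9 to 12.3), 6.09 (5.94 to 6.25) and 8.13 (7.81 to 8.46) in resting B-cells, and 11.2 (10.8 to 11.7), 7.90 (7.68 to 8.13) and 7.14 (6.86 to 7.43) after LPS. By variable genes both mutants were below wt in both states, whereas by constant genes both were above wt after LPS.

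**Figure D3:**
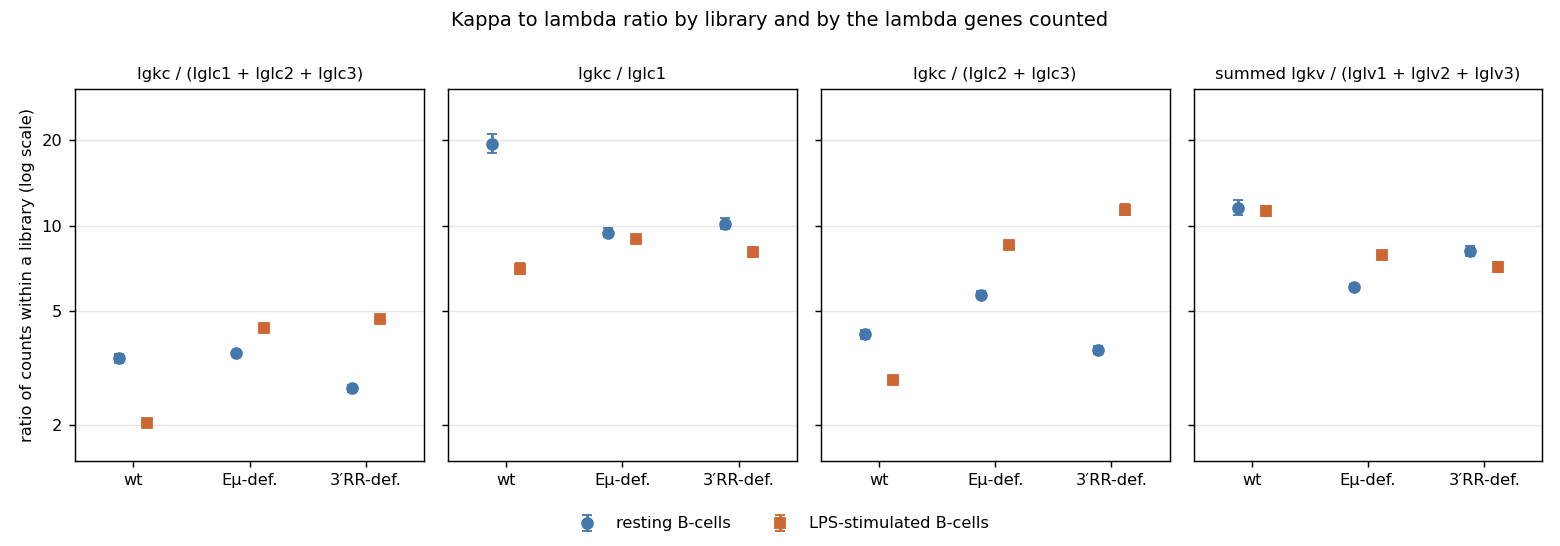
Kappa to lambda ratio of counts (vertical axis, log scale) by genotype, with circles for resting and squares for LPS-stimulated B-cells and bars for the exact 95% binomial interval of 1 library, for 4 definitions of the ratio. After LPS the wt library has the lowest ratio by all constant genes (2.04) and the highest by variable genes (11.2).

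Whether LPS changed these genes over the 3 genotypes was asked with edgeR's quasi-likelihood test, from a fit of additive effects of genotype and state to 14600 genes. The error of this fit is how far libraries depart from additivity and does not measure mice. Of the 8 light chain genes, all of which were tested, 1 was called higher after LPS, where 19.7% of all genes tested were, and 0 were called lower, where 21.1% of all genes were. The called gene was Iglc1 (log2 fold change 1.25, standard error 0.32, adjusted p = 0.0136 by edgeR with Benjamini-Hochberg adjustment), higher after LPS in 3 of 3 genotypes. With scaling to the spike-ins its log2 ratio in wt was 0.82, against 1.61 with TMM. In Eμ-deficient and 3′RR-deficient cells it was then 0.56 and 1.73, against 0.39 and 1.73. Its call was lost without the genotype term (edgeR adjusted p = 0.258) and without either 3′RR-deficient library (0.0786 without the resting and 0.0663 without the LPS-stimulated library), and over all alternative fits, by edgeR or DESeq2, the adjusted p lay between 0.000140 and 0.258.

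Igkc was not called after LPS (log2 fold change 0.62, standard error 0.34, edgeR adjusted p = 0.167). Its level after LPS was 1.12-fold that of resting B-cells in wt, 1.24-fold in Eμ-deficient and 2.64-fold in 3′RR-deficient cells. The direction in wt was not stable, with a log2 ratio of 0.16 that was -0.088 with total count scaling and -0.63 with scaling to the spike-ins. Without the resting or the LPS-stimulated wt library it was called (edgeR adjusted p = 0.0317 and 0.0257), and over all alternative fits the adjusted p lay between 0.0257 and 0.737. The joining genes had fitted log2 fold changes from 0.46 (Igkj4) to 0.73 (Igkj2), with edgeR adjusted p from 0.0639 to 0.332. Igkj2 was called without a filter on low counts (edgeR adjusted p = 0.0271), without either wt library (0.0280 and 0.0223) and without either 3′RR-deficient library (0.0299 and 0.0274), in each case without the resting library first. Its adjusted p over all alternative fits, by edgeR or DESeq2, lay between 0.0223 and 0.527. Igkj5 was called without either 3′RR-deficient library (edgeR adjusted p = 0.0289 and 0.0260), within a range of 0.0260 to 0.675. The ratio of their sum after LPS to that in resting B-cells was 1.58 in wt, 2.38 in Eμ-deficient and 0.981 in 3′RR-deficient cells. In wt it fell below 1 with scaling to the spike-ins (log2 ratio 0.66 with TMM and -0.13 with spike-ins). Iglc2 (0.16, standard error 0.29, edgeR adjusted p = 0.684) and Iglc3 (-0.06, standard error 0.27, edgeR adjusted p = 0.877) had the smallest fitted changes. The median log2 fold change was 0.55 over the 8 genes and -0.07 over all genes tested.

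In the same model, which asks whether a genotype differs from wt over both states, 0 of the 8 genes were called between Eμ-deficient and wt, where 0.911% of all genes were called higher and 0.253% lower. By edgeR, 2 of the 8 had an unadjusted p under 0.05, and the DESeq2 Wald test called 2, Igkc and Iglc1. Iglc1 lay just outside the threshold (log2 fold change 2.04, standard error 0.40, edgeR adjusted p = 0.0513), and for Igkc the values were 1.63, 0.41 and 0.130. Both were higher in 2 of 2 states. Over the alternative fits, by edgeR or DESeq2, the adjusted p of Iglc1 lay between 1.1e-05 and 0.848 and that of Igkc between 0.00102 and 1. Without the resting Eμ-deficient library the fitted log2 fold changes were 1.38 for Igkc, 1.35 for Iglc1, 0.22 for Iglc2 and 0.58 for Iglc3. Without the LPS-stimulated wt library they were 1.32, 2.31, 1.09 and 1.10, against 0.58 for Iglc2 and 0.64 for Iglc3 with all libraries.

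Within the states, Igkc was 2.96-fold higher in the resting Eμ-deficient than in the wt library (log2 ratio 1.57, 95% interval 1.54 to 1.60) and 3.30-fold higher after LPS (1.72, 1.69 to 1.75). The 95th percentile of all genes with at least 10 counts in both libraries was 1.46 in resting B-cells and 1.23 after LPS. Iglc1 had log2 ratios of 2.61 (2.49 to 2.72) and 1.38 (1.31 to 1.45). For Iglc2 the log2 ratio was 1.17 (1.09 to 1.25) in resting B-cells and 0.03 (-0.04 to 0.10) after LPS, where a difference was not detectable beyond counting error. The joining genes had log2 ratios from -0.54 to 0.09 in resting B-cells and from 0.27 to 0.70 after LPS. Scaling to the spike-ins lowered every ratio between the resting libraries by 0.81, to 0.75 for Igkc, 1.79 for Iglc1, 0.36 for Iglc2 and 0.19 for Iglc3.

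Between 3′RR-deficient and wt, 0 of the 8 genes were called, where 0.171% of all genes were called higher and 0.507% lower. By edgeR, 2 of the 8 had an unadjusted p under 0.05, and the DESeq2 Wald test called 0. The fitted log2 fold change was 1.28 for Iglc1 (standard error 0.39, edgeR adjusted p = 0.413) and 0.93 for Igkc (standard error 0.41, edgeR adjusted p = 0.874). For Igkc it was 0.32 without the LPS-stimulated and 1.49 without the resting 3′RR-deficient library. Iglc1 was called without a filter on low counts (edgeR adjusted p = 0.0496) and without the LPS-stimulated wt library (0.0327), within a range of 0.0327 to 1.00 over the alternative fits. This comparison shares both wt libraries with the Eμ-deficient one. The median log2 fold change of the 8 genes was 0.21 against wt here and 0.47 for Eμ-deficient, where over all genes it was 0.04 and -0.01.

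Within the states, the log2 ratio of Igkc between the 3′RR-deficient and wt libraries was 0.28 (95% interval 0.25 to 0.31) in resting B-cells and 1.52 (1.49 to 1.55) after LPS. The 95th percentile of all genes was 0.84 and 1.32, respectively. Iglc1 had log2 ratios of 1.21 (1.09 to 1.33) and 1.33 (1.25 to 1.41). Iglc2 had 0.24 (0.16 to 0.32) in resting B-cells, and -0.56 (-0.66 to -0.47) after LPS. Iglc3 had 0.74 (0.65 to 0.84) in resting B-cells and -0.31 (-0.42 to -0.19) after LPS. With scaling to the spike-ins, Iglc2 had -0.0026 and -0.016 and Iglc3 had 0.50 and 0.24, so that neither gene then pointed in opposite directions in the 2 states by more than counting error. For Igkc this scaling gave 0.035 in resting B-cells and 2.07 after LPS. Igkj5 was lowest relative to wt after LPS, at -0.82 (-1.10 to -0.55), and at -0.27 with scaling to the spike-ins. Between the same LPS-stimulated libraries the spike-in RNAs ranged from -3.15 to 1.62 with TMM scaling, which takes in each of the TMM-scaled ratios of these genes after LPS.

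**Figure D4:**
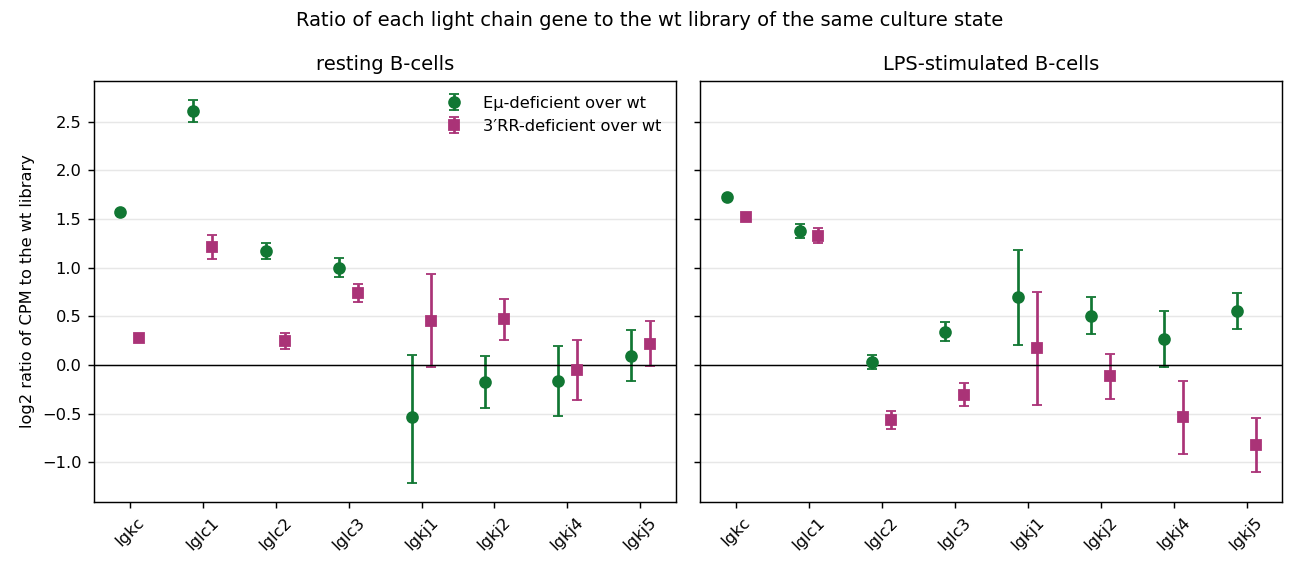
Log2 ratio of CPM of the Eμ-deficient (circles) and 3′RR-deficient (squares) library to the wt library of the same state (vertical axis), for each of the 8 genes, with bars for the exact 95% interval of counting error. After LPS, Igkc and Iglc1 lie above 1.3 for both mutants while Iglc2 lies at 0.03 and -0.56.

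Ratios between libraries also varied with base composition. Between the LPS-stimulated 3′RR-deficient and wt libraries the median log2 ratio was -0.83 over the tenth of genes lowest in GC content and 0.81 over the tenth highest. For LPS-stimulated over resting wt it ran the other way, from 0.62 to -0.61, as it did for resting Eμ-deficient over wt, from 0.41 to -0.49. The 4 constant genes lie close together on this scale, with 47.3% (Iglc3) to 49.8% (Iglc1) GC. Removal of the trend could therefore move their ratio only little. It left a kappa to lambda ratio of 4.68 in the 3′RR-deficient and of 2.08 in the wt library after LPS. The part of base composition in this ratio was not otherwise tested.

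The light chain levels can be set beside those of the heavy chain μ gene. Per count of Ighm there were 0.388, 0.460 and 1.20 counts of Igkc in resting B-cells, and 0.304, 0.405 and 1.75 after LPS. The 3′RR-deficient libraries were highest in this ratio, and they were also lowest in Ighm itself, which had 2086, 5217 and 819 CPM in resting B-cells, and 2977, 7370 and 1485 CPM after LPS. Of the receptor partners Ighm, Ighd, Cd79a and Cd79b, 0 rose and 1 (Ighd) fell after LPS in the edgeR model. In 3′RR-deficient cells 0 were called, and in Eμ-deficient cells 0 were called higher and 1 (Ighd) lower. Among all genes tested, 19.7% rose and 21.1% fell after LPS. In the same order, the shares were 0.171% and 0.507% in 3′RR-deficient and 0.911% and 0.253% in Eμ-deficient cells.

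Of 8 further lambda genes, 7 could be tested. After LPS 2 rose, Iglj1 (log2 fold change 1.79, edgeR adjusted p = 0.0119) and Iglv1 (0.88, edgeR adjusted p = 0.0391). In Eμ-deficient cells 2 were called higher, Iglv1 (2.92, edgeR adjusted p = 0.00977) and Iglv2 (3.14, edgeR adjusted p = 0.00935). In 3′RR-deficient cells 0 were called. The share of all genes tested that rose was 19.7% after LPS, 0.911% in Eμ-deficient and 0.171% in 3′RR-deficient cells, where 0.507% fell. Iglc4, an additional constant gene of the lambda locus, had 5 to 16 counts per library.

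Of the 15 transcription factors known to act on light chain enhancers and promoters, 2 rose after LPS, the octamer factor Pou2f2 (log2 fold change 0.95, edgeR adjusted p = 0.0116) and its coactivator Pou2af1 (1.04, edgeR adjusted p = 0.0118). The 3 called lower were Rel (-1.90, edgeR adjusted p = 0.000727), Ebf1 (-1.17, edgeR adjusted p = 0.00519) and Spi1 (-0.82, edgeR adjusted p = 0.0164), and 0 of the 15 were called in either mutant. Of all genes tested, 19.7% were called higher and 21.1% lower after LPS. In Eμ-deficient cells these shares were 0.911% and 0.253%, and in 3′RR-deficient cells 0.171% and 0.507%. The genes next to Igkc differed in direction after LPS: Rpia rose (0.88, edgeR adjusted p = 0.0118), Eif2ak3 fell (-1.30, edgeR adjusted p = 0.00809), and neither was called in a mutant. Genes of recombination were near 0, with 0 counts of Rag2 in every library and at most 12 of Rag1. Of Rag1, Rag2 and Dntt, only Dntt had enough counts to be tested, with 6, 13 and 17 in resting B-cells and 1, 1 and 0 after LPS. It was called lower after LPS (-3.46, edgeR adjusted p = 0.0135), a value that rests on counts near 0. Of the surrogate light chain genes of precursor cells, Igll1 and Vpreb2 had 0 counts in every library, Vpreb1 had at most 4, and Vpreb3, which mature B-cells also express, fell after LPS (-1.67, edgeR adjusted p = 0.00346).

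The label of B-cells was checked on 6 B-cell markers, all of which were detected in every library. Their summed level was 2695, 1965 and 3036 CPM in resting B-cells, and 1926, 1688 and 2014 CPM after LPS. Pax5 was the most abundant on average. Cd22 was the 1 marker called lower after LPS, where 21.1% of all genes tested were. CD43 itself, the product of Spn, was detected at 10.1 to 90.1 CPM, highest in 3′RR-deficient cells after LPS, and rose after LPS (log2 fold change 1.65, edgeR adjusted p = 0.00659).

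Plasma cells contain far more light chain RNA than B-cells. They bear CD43, as T-cells and most myeloid cells do, so that the removal of CD43-bearing cells is meant to take them out. The summed level of 6 plasma cell markers was 226, 1960 and 299 CPM in resting B-cells, and 552, 1626 and 807 CPM after LPS. All 6 were detected in every library, and Jchain was the most abundant on average, at 113, 1734 and 171 CPM in resting B-cells, and 96.1, 803 and 200 CPM after LPS. After LPS Mzb1 was above Jchain in the wt and 3′RR-deficient libraries, at 238 and 300 CPM. In Eμ-deficient cells the markers differed in direction after LPS, with less Jchain but more Mzb1 (91.9 and 402 CPM), Xbp1 (91.3 and 297 CPM) and Prdm1 (20.3 and 101 CPM). In the edgeR model 3 of 6 were called higher after LPS (Mzb1, Prdm1 and Xbp1). In Eμ-deficient cells 1 of 6 was called higher (Jchain, log2 fold change 3.55, edgeR adjusted p = 0.00748), and in 3′RR-deficient cells 0 of 6. Of all genes tested, 19.7%, 0.911% and 0.171% were called higher, in the same order. The part of plasma cells in the levels of Igkc and Iglc1 was not tested.

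Erythroid markers were also highest in the resting Eμ-deficient library. Their sum over 5 genes was 3351, 20075 and 3854 CPM in resting B-cells, and 52.9, 670 and 133 CPM after LPS, with Hba-a1 the most abundant on average, and all 5 were called higher in Eμ-deficient cells and lower after LPS. The 6 T-cell markers summed to 15.1, 32.5 and 19.1 CPM and to 0.813, 4.12 and 1.46 CPM, with Cd4 the most abundant on average and 0 counts of 2 of them in the LPS-stimulated wt and of 1 in the 3′RR-deficient library. The 6 macrophage and neutrophil markers summed to 149, 361 and 150 CPM and to 21.2, 33.2 and 28.2 CPM, with Lyz2 the most abundant on average and 0 counts of 1 of them in the LPS-stimulated wt library. The 3 NK cell markers summed to between 2.80 and 3.40 CPM in resting B-cells, and after LPS all 3 had 0 counts in the wt and the 3′RR-deficient library. All 6 T-cell markers and all 6 macrophage and neutrophil markers were called lower after LPS. So was 1 of the 2 NK cell markers that could be tested. In either mutant 0 of these were called, which does not show equal levels, since each group had 1 library. The T-cell sum and the macrophage and neutrophil sum were highest in the Eμ-deficient library in both states. The NK cell sum was highest there only after LPS. Over all genes tested, 21.1% fell after LPS. In Eμ-deficient cells 0.911% rose and 0.253% fell, and in 3′RR-deficient cells 0.171% rose and 0.507% fell. The part of these cell types in the light chain values was not tested.

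The genes whose level most resembled that of Igkc over the 6 libraries were searched among 6518 genes with at least 100 counts in every library, by the root mean square difference of log2 CPM after each gene was centred on its mean. The 5 nearest were kappa variable genes: Igkv6-17 (0.114), Igkv6-23 (0.144), Igkv6-15 (0.215), Igkv6-25 (0.215) and Igkv4-55 (0.281). Igkv6-17 had 12.3, 42.3 and 15.5 CPM in resting B-cells, and 15.4, 56.8 and 40.3 CPM after LPS. It was picked for its likeness to Igkc over these same libraries, so that its lower and higher sets are no separate support for those of Igkc. The 3 genes nearest to the sum of Iglc1 to Iglc3 were no immunoglobulin genes, Alad (0.1999), Optn (0.233) and Dhrs3 (0.237). Summed over all Igkv genes the level was 749, 3139 and 1074 CPM in resting B-cells, and 1307, 3981 and 2248 CPM after LPS.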

How the data were processed

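The authors removed ribosomal RNA, prepared stranded libraries, sequenced paired reads of 150 nt and mapped them to mm10 with STAR 2.4.0a and Ensembl gene models. The deposited values are raw counts of fragments per gene name, made by the authors with featureCounts (Subread 1.4.6-p1), on 1 strand and with multi-mapping reads. Of 47055 names, 92 are spike-ins (4.75% to 7.10% of counts), which no library size or test includes. All 6 sample columns of the table were used and 0 left unused. The labels give 5 mg per ml of LPS in the protocol text and 5 μg per ml elsewhere, and the extraction reagent differs between labels and methods. Counts were scaled with TMM, and genes that reached 10 counts in 2 or more libraries were fitted with the edgeR 4.0.16 quasi-likelihood test (R 4.3.3), Benjamini-Hochberg threshold 0.05. Ratios of 2 libraries carry exact conditional binomial 95% intervals (scipy 1.17.1). Sequences, coordinates, exon lengths and GC content are from GENCODE M21. Alternatives were other scalings, filters and fits, DESeq2 1.42.0, other lambda genes and removal of a trend on GC content (statsmodels 0.14.6). The genes described and the lists were chosen with earlier results of these data known. Named genes are the 8 genes, the lists of light chain partners, regulators and cell type markers, and the nearest genes by level.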

Additional observations from a re-analysis of the deposited data

Results flagged for a closer look

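The results given here are of 2 kinds, both with 95% intervals of counting error away from 0. Either the ratio of 1 mutant to wt pointed in opposite directions in the 2 states. Or the ratio of LPS-stimulated to resting B-cells did so in different genotypes. The ratios of the 2 mutants to wt within a state were not set against each other. They were sought among the 8 genes, the sum of the 4 joining genes, Igkj3 and the kappa to lambda ratio by all constant genes. None of these differences was tested, since each group had 1 library.

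For 3′RR-deficient relative to wt cells, log2 ratios were positive in resting B-cells and negative after LPS for Iglc2 (0.24 and -0.56), Iglc3 (0.74 and -0.31), the sum of the joining genes (0.29 and -0.41) and Igkj3 (0.67 and -1.43). With scaling to the spike-ins only Igkj3 kept opposite directions beyond counting error (0.42 and -0.88), against -0.0026 and -0.016 for Iglc2, 0.50 and 0.24 for Iglc3, and 0.040 and 0.14 for the sum. For the kappa to lambda ratio by all constant genes it was the other way round, -0.35 in resting B-cells and 1.21 after LPS. With variable genes the directions were not opposite (-0.51 and -0.65).

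The log2 ratio of LPS-stimulated to resting B-cells of Iglc2 was 0.81 in wt and -0.33 in Eμ-deficient cells. That of Iglc3 was 0.51 in wt, -0.15 in Eμ-deficient and -0.54 in 3′RR-deficient cells. With scaling to the spike-ins Iglc2 had 0.015 in wt and -0.16 in Eμ-deficient cells, and Iglc3 had -0.28 in wt, 0.022 in Eμ-deficient and -0.54 in 3′RR-deficient cells. The values above 0 were then within counting error, so that no opposite directions beyond it were left for either gene. For Igkj3 the log2 ratio was 1.64 in wt, 1.60 in Eμ-deficient and -0.45 in 3′RR-deficient cells. For the kappa to lambda ratio it was -0.75 in wt, 0.29 in Eμ-deficient and 0.81 in 3′RR-deficient cells. With variable genes it was -0.04, 0.38 and -0.19, and with Iglc1 alone as lambda it was below 0 in all 3 genotypes (-1.45, -0.073 and -0.33).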

How the results depend on the processing

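After LPS, 1 of the 8 genes was called. The count was 2 without a filter on low counts, 0 without the genotype term, and 1 to 3 when a library or a genotype was left out. The number of all genes called (5962) ran from 3960 to 6751 when libraries were left out. Leaving out single libraries was added after the data were seen, and the remaining library of a genotype was then assumed to vary like the others.

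Between Eμ-deficient and wt, 0 of the 8 genes and 170 of all genes were called. The DESeq2 Wald test called 2 and 340, no filter on low counts 2 and 605, and the fit to only the genotypes compared 1 and 393. With 10 counts in every library 96 genes were called, of fewer tested. Leaving out single libraries gave 0 to 4 and 194 to 1230. Between 3′RR-deficient and wt, where 0 and 99 were called, DESeq2 called 178 of all genes, no filter 1 and 339, 10 counts in every library 31, and the fit to the genotypes compared 177. Leaving out single libraries gave 0 to 1 and 111 to 1521. The cause of these changes was not tested.

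For the log2 ratio of a mutant's kappa to lambda ratio to that of wt, Iglc1 alone as lambda gave -1.04 (Eμ-deficient) and -0.93 (3′RR-deficient) in resting and 0.34 and 0.19 in LPS-stimulated B-cells. Iglc2 and Iglc3 gave 0.46, -0.18, 1.57 and 1.99, and variable genes gave -0.92, -0.51, -0.51 and -0.65, against 0.06, -0.35, 1.10 and 1.21 with all constant genes. Division by exon length, added after the data were seen, gave 1.04 and 1.13 after LPS. The log2 ratio of LPS-stimulated to resting B-cells was -0.073 in Eμ-deficient and -0.33 in 3′RR-deficient cells with Iglc1 alone, and -0.19 in 3′RR-deficient cells with variable genes. The mean difference between states (0.12) was -0.62 with Iglc1 alone and ran from -0.23 to 0.55 when a genotype was left out, an alternative added after the data were seen.

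Of 336 fitted values of the 8 genes under an alternative, 281 kept their direction and their side of the threshold, 30 passed it only there, 4 no longer passed it and 21 changed sign. The changes of sign were all in values that were not called, and all but 1 came from leaving libraries out. After LPS, Iglc2 ran from -0.16 to 0.50 and Iglc3 from -0.33 to 0.18. In 3′RR-deficient against wt, Igkj1 ran from -0.13 to 0.73, Igkj2 from -0.28 to 0.63, Igkj4 from -0.64 to 0.048, Igkj5 from -0.93 to 0.33, Iglc2 from -0.64 to 0.32 and Iglc3 from -0.20 to 0.64. In Eμ-deficient against wt, Igkj1 ran from -0.63 to 0.76, Igkj2 from -0.35 to 0.65, Igkj4 from -0.31 to 0.38 and Igkj5 from -0.21 to 0.79, and Igkj4 was -0.0046 with total count scaling. Of 176 values of a gene's mutant to wt ratio under an alternative, 132 kept their sign within the counting interval and 35 kept it outside. The sign changed in 9, and in 6 of these the interval of the TMM-scaled value included 0. The other 3, all 3′RR-deficient to wt with scaling to the spike-ins, were Igkj4 (0.014) and Iglc3 (0.24) after LPS and Iglc2 (-0.0026) in resting B-cells, of which Igkj4 and Iglc2 were then within counting error of 0. The sum of the joining genes was 0.14 after LPS in the same comparison and scaling. For ratios of LPS-stimulated to resting B-cells, where the alternatives were added after the data were seen, 12 of 132 values changed sign, 6 of them where the interval of the TMM-scaled value excluded 0. In wt these were Igkc with total counts (-0.088), and with spike-ins Igkc (-0.63), Igkj2 (-0.091), Igkj4 (-0.32) and Iglc3 (-0.28). In Eμ-deficient cells it was Iglc3 with spike-ins (0.022). This value and that of Igkj2 were then within counting error of 0. The joining sum, counted apart, was -0.13 in wt with spike-ins. The cause was not tested. The trend on GC content was not removed for the joining genes, whose length is too short for a GC value to describe their fragments. Depth limits the joining genes most, since Igkj1 had as few as 31 counts.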

Other observations

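Igkj3, in which the codons for the conserved turn were not found, was not among the 8 genes but had more counts than Igkj1 and Igkj4 in every library. In wt it had 278 counts in resting B-cells and 998 after LPS, in Eμ-deficient cells 210 and 516, and in 3′RR-deficient cells 500 and 158. As a share of all 5 Igkj genes this was 25.6% in the resting wt library (95% interval 23.0% to 28.3%) and 40.4% in the LPS-stimulated wt library (38.4% to 42.3%). In Eμ-deficient cells it was 27.6% (24.4% to 30.9%) and 32.7% (30.4% to 35.1%), and in 3′RR-deficient cells 30.9% (28.7% to 33.2%) and 25.0% (21.7% to 28.6%), the resting library first. Its share was the largest of the 5 in the LPS-stimulated wt and Eμ-deficient libraries and in the resting 3′RR-deficient library.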
